A study of Mus musculus with 6 samples.

Results

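The Wnt ligands, their cell surface receptors and the proteins that hold them in check were read in mouse mesenchymal stem cells, a multipotent stromal cell of the fat, bone and cartilage lineages. Gene symbols chose the members: the Wnt ligands, the Frizzled receptors, the co-receptors Lrp5 and Lrp6, the secreted antagonists of the Sfrp family and Wif1, the Dickkopf proteins (Dkk) and the scaffolds Axin1 and Axin2. They came to 42 of the 18193 genes with a value, namely 19 ligands, 10 receptors, 2 co-receptors, 5 secreted antagonists that bind Wnt, 4 Dickkopf genes and 2 scaffolds. All cultures, controls included, were a purchased cell stock in medium given rosiglitazone (1 µM), insulin (5 µg/ml), isobutylmethylxanthine (100 µM) and dexamethasone (1 µM) anew 48 h earlier. Mixtures of this kind are a standard way to start fat cell formation. The exposure was 2 h of a continuous-wave terahertz laser (2.52 THz, far-infrared), with an unexposed control dish next to it and both at 26 to 27 °C. It was done in 3 experiments, which gave 3 irradiated and 3 control arrays. RNA was extracted right after the exposure, and each irradiated dish is set against the control of its experiment.

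Wnt proteins are secreted, lipid-modified signals. In the canonical branch a Wnt bridges a Frizzled receptor and Lrp5 or Lrp6, the complex that holds Axin, APC and the kinase GSK3 is disabled, and beta-catenin enters the nucleus to work with TCF/LEF factors. Other Wnt proteins, Wnt5a among them, mostly act without beta-catenin. In the fat lineage canonical Wnt signalling is known to hold precursor cells back from becoming fat cells, with Wnt10b as its best known ligand, while Wnt signals favour bone formation.

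Expression is given on the log2 scale for each probe set, a group of probes that reads 1 transcript region. Each gene was read by its brightest probe set, and the median gene had a mean level of 6.46 over the 6 arrays. A probe set's level depends on its probes too, so levels of different genes cannot be read as relative amounts. Precision is limited by how few arrays there are. Array medians lay between 5.01 and 5.04. Of the genes that define the labelled cells, Thy1 lay below the median gene at 3.88 while 9 of 10 stromal markers were at or above it, and 8 of 8 measured adipocyte markers and 8 of 9 macrophage markers were there too. Of 7 endothelial markers 0 were at or above it. In such bulk cultures a change in the number of cells of a type and a change in RNA per cell cannot be told apart.

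Most of the ligands were dim on these arrays, and so were 5 of the 9 extracellular antagonists. At or above the median gene were 15 of 42 members (35.7%): 3 of 19 ligands, 6 of 10 receptors, 1 of 2 co-receptors, 3 of 5 secreted Wnt-binding antagonists, 1 of 4 Dickkopf genes and 1 of 2 Axin genes. The members nearest to the median gene were Wnt9a at 6.67, just above it, and Wnt7b at 6.44, just below it. These counts rest on the brightest probe set of each gene. Fzd1, Fzd7 and Lrp6, for example, each had another probe set below the median gene, at 6.37, 4.54 and 5.81. Those of Dkk3 and Wnt4 lay above it, at 11.18 and 6.89. With the mean of a gene's probe sets the count of members was 17.

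**Figure D1:**
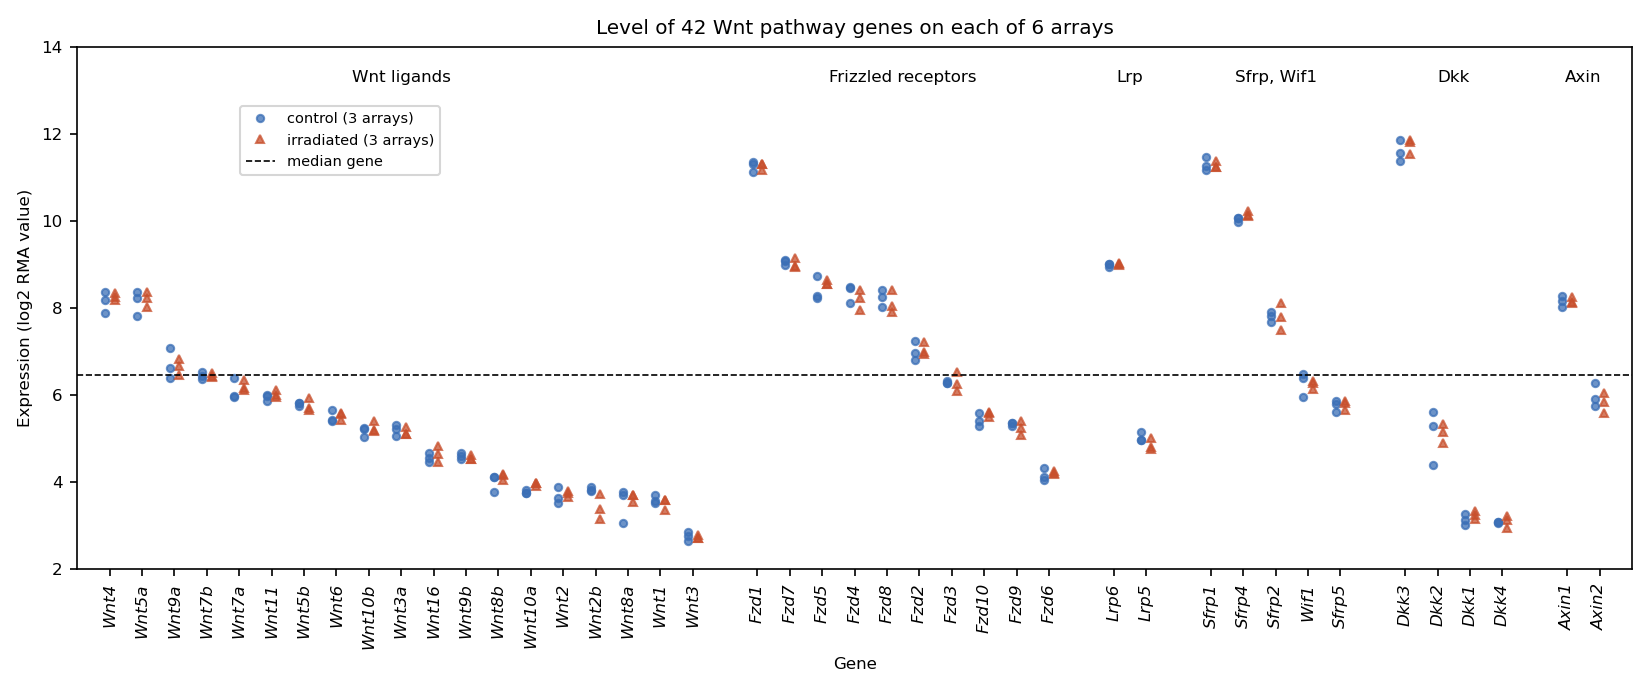
Level of each of the 42 genes (log2 RMA value, vertical axis) on the 3 control arrays (blue circles) and the 3 irradiated arrays (orange triangles), with genes ordered by role and level and the median gene at 6.46 as a dashed line. Dkk3, Sfrp1 and Fzd1 lie above 11 on all 6 arrays, and 16 of the 19 ligands have a mean below the line.

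No member differed between irradiated and control cultures after correction. With experiments as blocks, limma called 0 of 42 members and 0 of all 18193 genes (0%) at a Benjamini-Hochberg adjusted p under 0.05, and each member's adjusted p was 0.995. At an unadjusted p under 0.05 limma gave 1 member, Wnt2b, against 603 of all genes (3.31%). The median difference, irradiated minus control, was 0.018 log2 units over the 42 members and -0.01 over all genes. Of the members 25 had a mean above 0 and 17 below it, and of all genes 8230 and 9689. A difference of 1 sign in all 3 experiments was seen for 4 members, Sfrp4, Axin2, Wnt10a and Wnt2b, where 21% of all genes had one. limma's 95% interval of every member's difference lay within 2-fold and that of 40 of 42 within 1.5-fold, and the exceptions were Wnt2b and Dkk2. These intervals draw each gene's spread toward that of all genes. For a variable gene such as Dkk2 (SD of the 3 differences 0.84) they are narrower than its own 3 differences would give, so they do not exclude larger changes there.

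**Figure D2:**
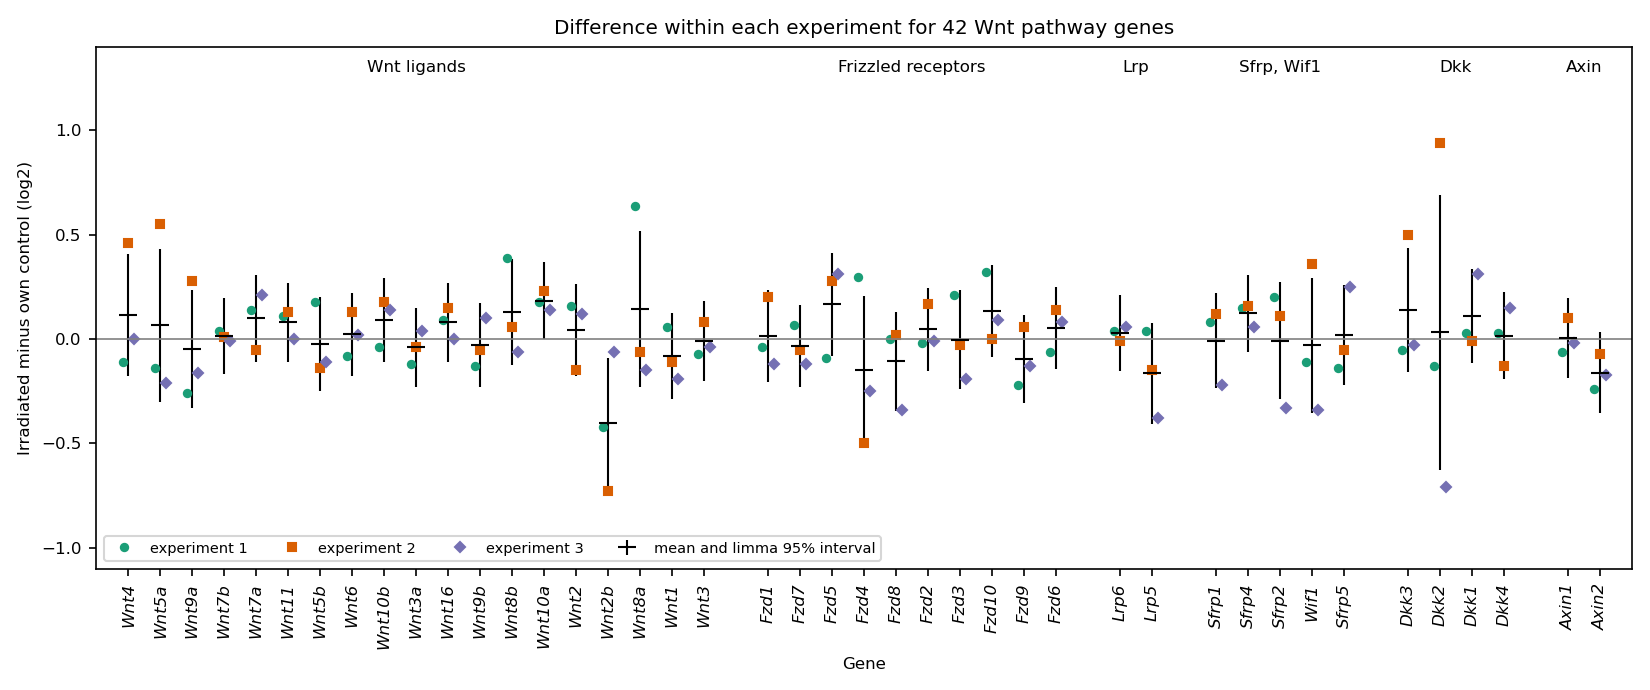
Irradiated minus own control (log2 units, vertical axis) of each of the 42 genes in experiments 1 (circles), 2 (squares) and 3 (diamonds), with the mean of the 3 and limma's 95% interval in black. The intervals include 0 for all genes but Wnt2b, and the widest belongs to Dkk2, at 0.94 in experiment 2 and -0.71 in experiment 3.

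The ligands at or above the median gene were Wnt4, Wnt5a and Wnt9a. Wnt4, a ligand with canonical and other effects that is known from kidney and gonad development, read 8.37, 7.87 and 8.17 in the controls of experiments 1 to 3 and 8.26, 8.33 and 8.17 in the irradiated cultures. The control of experiment 2 was the lowest of the 6 and the groups overlapped. Its mean difference was 0.12 log2 units (SE 0.12, 95% interval -0.18 to 0.41, n = 3 pairs), and without experiment 2 it was -0.055. Wnt5a, the leading ligand of beta-catenin-independent signalling, read 8.36, 7.82 and 8.23 in the controls and 8.22, 8.37 and 8.02 in the irradiated cultures. Again the control of experiment 2 was the lowest and the groups overlapped. Its mean difference was 0.067 (SE 0.15, 95% interval -0.30 to 0.43), and without experiment 2 it was -0.18. Wnt9a, a ligand of the developing skeleton, read 7.08, 6.38 and 6.62 in the controls and 6.82, 6.66 and 6.46 after exposure, with a mean difference of -0.047 (SE 0.12). The highest and the lowest of its 6 values were both controls.

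The promoter regions of Wnt4 and Fzd4 are shown because their differences had opposite signs in experiment 2. That of Axin2 is shown because Axin2 is a standard target of the pathway. Fzd1 is shown as the only brighter member in the table with CTTTGA, a form of the TCF/LEF core, on either strand. Each region is the 250 bases before the annotated start, from RefSeq on GRCm38.p6, read 5′ to 3′ on the gene's strand. Capitals mark every CG and, in Fzd1, also the run TCAAAG, the reverse complement of the core CTTTGA.
Wnt4 (chr4:137277385-137277634, plus strand): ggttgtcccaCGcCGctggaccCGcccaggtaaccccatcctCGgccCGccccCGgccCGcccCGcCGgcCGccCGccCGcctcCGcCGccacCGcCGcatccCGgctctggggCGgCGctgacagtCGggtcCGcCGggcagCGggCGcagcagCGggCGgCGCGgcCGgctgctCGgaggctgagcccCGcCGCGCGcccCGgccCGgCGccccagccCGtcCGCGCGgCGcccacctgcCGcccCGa
Fzd4 (chr7:89404116-89404365, plus strand): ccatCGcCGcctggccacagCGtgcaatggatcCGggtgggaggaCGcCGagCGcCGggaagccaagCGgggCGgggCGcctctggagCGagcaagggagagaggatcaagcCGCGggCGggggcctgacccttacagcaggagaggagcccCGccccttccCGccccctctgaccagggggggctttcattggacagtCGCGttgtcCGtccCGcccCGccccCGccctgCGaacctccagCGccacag
Fzd1 (chr5:4758217-4758466, minus strand): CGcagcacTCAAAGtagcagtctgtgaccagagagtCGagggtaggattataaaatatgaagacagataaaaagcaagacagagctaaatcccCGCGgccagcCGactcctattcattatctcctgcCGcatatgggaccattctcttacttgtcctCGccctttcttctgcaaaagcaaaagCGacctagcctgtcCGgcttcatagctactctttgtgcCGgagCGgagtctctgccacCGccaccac
Axin2 (chr11:108920099-108920348, plus strand): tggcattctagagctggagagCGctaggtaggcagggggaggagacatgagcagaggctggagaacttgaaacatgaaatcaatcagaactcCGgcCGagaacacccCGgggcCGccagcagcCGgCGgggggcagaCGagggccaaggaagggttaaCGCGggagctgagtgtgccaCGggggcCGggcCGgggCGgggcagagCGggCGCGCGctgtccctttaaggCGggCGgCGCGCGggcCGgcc

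The table held 30 promoters for 27 of the 42 members, matched by symbol. They were rich in CG, with a median of 22 CG per 250 bases (range 4 to 48) where the promoters of all measured genes in the table had a median of 12. The members at or above the median gene had a median of 25 over 7 promoters and the others 22 over 23 promoters. For all measured genes the medians were 16 at or above the median gene and 6 below it. The core CTTTGA, searched on both strands whatever else it overlapped, was in 4 of 30 member promoters (13.3%) and in 12% of the promoters of all measured genes. TATAAA, searched in the same way, was in 5 of 30 (16.7%), Fzd1 among them, and in 8.81% of those of all measured genes. For members below the median gene it was in 4 of 23, against 11.7% for all measured genes there. For members at or above it, TATAAA was in 1 of 7, against 6.23%. Other forms of the TCF/LEF motif were not searched, so a promoter without CTTTGA may still hold one. A match describes the letters in this window and does not show whether the site is bound.

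The other 16 ligands had mean levels between 2.73, for Wnt3, and 6.44, for Wnt7b, all below the median gene. Wnt2b, a canonical ligand, read 3.80, 3.88 and 3.78 in the controls and 3.38, 3.15 and 3.72 in the irradiated cultures. All 3 irradiated values lay below all 3 controls. The mean difference was -0.40 log2 units (SE 0.13, 95% interval -0.71 to -0.092, n = 3 pairs), and limma gave an unadjusted p of 0.0187 and, after Benjamini-Hochberg adjustment, 0.995, so the difference did not pass. It was -0.24 without experiment 2 and -0.57 without experiment 3. Its level of 3.62 stood at the 16.3 percentile of all genes. RMA tends to compress changes of such dim probe sets, but dim genes also varied more between experiments. The SD of the 3 differences had a median of 0.17 over genes below the median gene and 0.12 over the others. In limma 5.25% of all genes below the median gene had an unadjusted p under 0.05, and 1 of the 27 members there (3.7%), Wnt2b. Wnt10a, a canonical ligand of skin, tooth and fat precursors, was the other ligand of 1 sign, with 3.73, 3.75 and 3.82 in the controls and 3.91, 3.98 and 3.96 after exposure. Its groups did not overlap, and its difference was 0.18 (SE 0.077, 95% interval -0.0010 to 0.37). Groups that did not overlap were found for 3 of 42 members, Wnt2b, Wnt10a and Sfrp4, and for 8.26% of all genes.

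Wnt8a, an early embryonic ligand, had the most variable difference among the ligands. It read 3.06, 3.76 and 3.69 in the controls and 3.70, 3.70 and 3.54 in the irradiated cultures, so that its 0.64 in experiment 1 came with the lowest control value of the 3. The mean was 0.14 (SE 0.16). Wnt10b, the ligand known for blocking fat formation, lay at 5.20 with differences of -0.04, 0.18 and 0.14 and a mean of 0.093 (SE 0.084). The groups overlapped there too. Wnt6, which is also known to restrain fat formation, had a mean difference of 0.023, Wnt3a, the ligand most used to stimulate the canonical branch, -0.040 and Wnt11, a beta-catenin-independent ligand, 0.080. Over all 19 ligands the mean differences ran from -0.40 to 0.18 with a median of 0.043, and 12 were above 0.

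In the genome 8 of the ligand genes sit side by side in 4 pairs with no other protein-coding gene between them: Wnt6 with Wnt10a on chromosome 1, Wnt3a with Wnt9a and Wnt9b with Wnt3 on chromosome 11, and Wnt10b with Wnt1 on chromosome 15. Differences of the partners were 0.023 and 0.18, -0.040 and -0.047, -0.027 and -0.010, and 0.093 and -0.080 in that order. Only Wnt9a of these 8 lay above the median gene.

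The Frizzled receptors, which span the membrane and bind Wnt through a cysteine-rich domain, had 6 of 10 genes at or above the median gene. Fzd1 read 11.35, 11.12 and 11.30 in the controls and 11.31, 11.32 and 11.18 in the irradiated cultures, with a mean difference of 0.013 (SE 0.092). Fzd7, a canonical receptor known from stem cells, read 9.07, 8.98 and 9.09 in the controls and 9.14, 8.93 and 8.97 after exposure, a difference of -0.033 (SE 0.082). The groups of both genes overlapped, and their mean differences were smaller than the range of their controls. Fzd5, a receptor for Wnt5a among others, read 8.73, 8.27 and 8.23 in the controls and 8.64, 8.55 and 8.54 after exposure. It was higher in experiments 2 and 3 (0.28 and 0.31) and lower in experiment 1 (-0.09). Its mean of 0.17 (SE 0.10, 95% interval -0.081 to 0.41) was the highest of any receptor and did not pass. The second probe set of Fzd5, at level 5.705, was lower in every experiment (-0.02, -0.14 and -0.09), and the mean of both probe sets was 0.042.

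Fzd4, the receptor for norrin and several Wnt proteins and a bright receptor in fat tissue, had the opposite pattern to the brightest probe set of Fzd5. It read 8.11, 8.46 and 8.47 in the controls and 8.41, 7.96 and 8.22 in the irradiated cultures. Experiment 1 gave 0.30, experiment 2 -0.50 and experiment 3 -0.25, so the groups overlapped. The mean of -0.15 (SE 0.15, 95% interval -0.51 to 0.21) was the lowest of the 10 receptors, and it was 0.025 without experiment 2 and -0.38 without experiment 1. Fzd8 read 8.41, 8.02 and 8.25 in the controls and 8.41, 8.04 and 7.91 after exposure, and its difference of -0.11 (SE 0.099) rested on experiment 3. Its second probe set, at level 6.40, stood at 0.15. Fzd2, a receptor linked to Wnt5a signalling, read 7.24, 6.81 and 6.95 in the controls and 7.22, 6.98 and 6.94 after exposure, a difference of 0.047 (SE 0.083). Its probe set is of a kind that can read more than 1 transcript. The dimmer receptors Fzd3, Fzd10, Fzd9 and Fzd6 lay between 4.18 and 6.28, with mean differences from -0.097 to 0.14.

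Of the co-receptors, Lrp6 was bright and the steadiest member of all. It read 9.0, 9.0 and 8.95 in the controls and 9.04, 8.99 and 9.01 in the irradiated cultures, a range of 0.09 log2 units over the 6 arrays. Its difference was 0.030 (SE 0.077, 95% interval -0.15 to 0.21). Lrp5, known for its part in bone mass, lay below the median gene at 4.94 with differences of 0.04, -0.15 and -0.38.

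**Figure D3:**
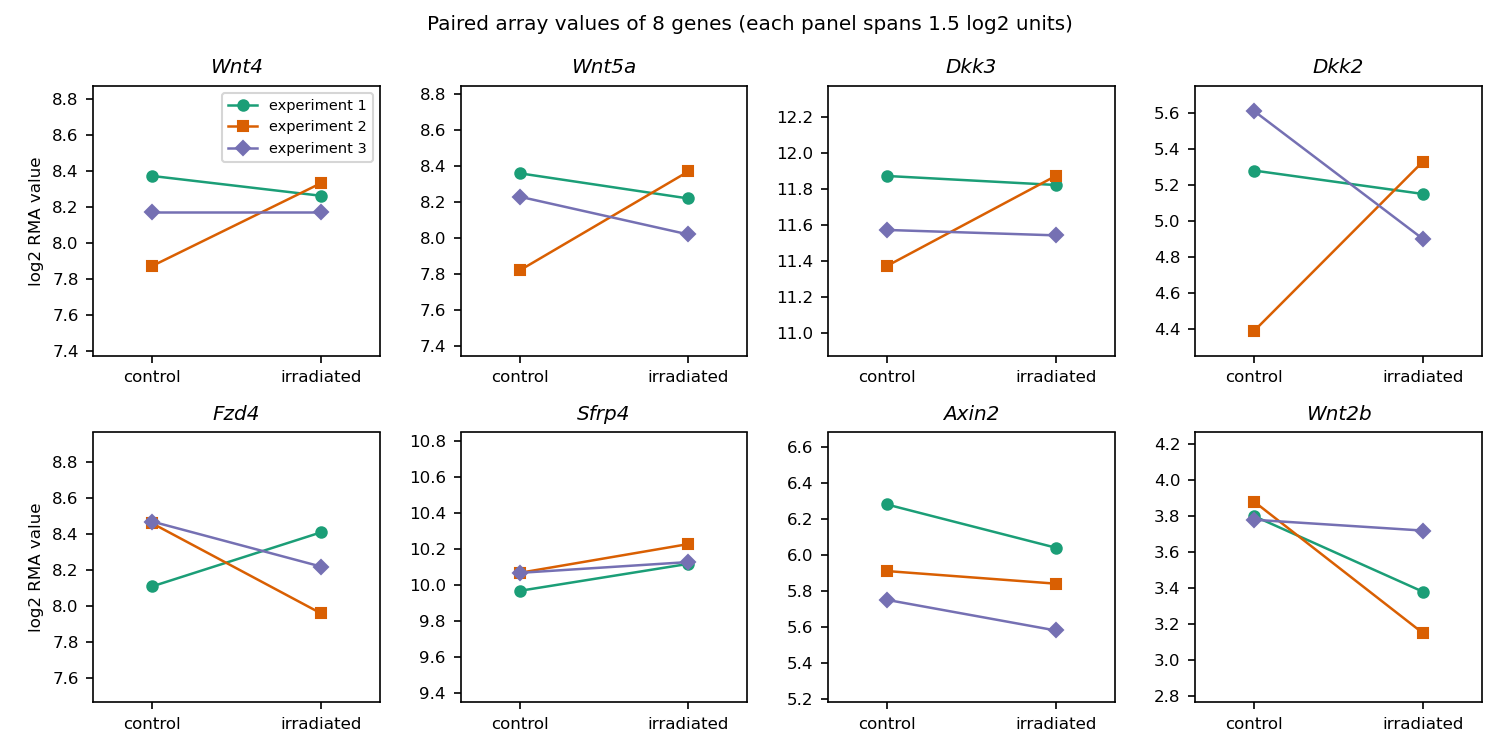
Log2 RMA values (vertical axis, each panel 1.5 log2 units high) of 8 genes in the control and the irradiated culture of each experiment, with a line joining the cultures of an experiment. In Wnt4, Wnt5a, Dkk3 and Dkk2 the control of experiment 2 is the lowest of the 6 values, and in Axin2 and Wnt2b all 3 lines go down.

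The Sfrp proteins carry a Frizzled-like domain and bind Wnt outside the cell. Sfrp1, whose loss is known to affect fat and bone formation, read 11.17, 11.26 and 11.46 in the controls and 11.25, 11.38 and 11.24 in the irradiated cultures. The groups overlapped and the mean difference was -0.0067 (SE 0.096). Sfrp4, an antagonist that fat tissue secretes and that is linked to insulin release, read 9.97, 10.07 and 10.07 in the controls and 10.12, 10.23 and 10.13 after exposure. All 3 irradiated values lay above all 3 controls, by little: the differences were 0.15, 0.16 and 0.06 and the mean 0.12 (SE 0.078, 95% interval -0.063 to 0.31), which did not pass. Of the 15 brighter members it was the only one whose mean difference exceeded the SD of its 3 differences, as did 6 of all 42 members. The share of all genes that do so is not given here, so this does not set Sfrp4 apart. Sfrp2, an antagonist in some settings and an enhancer of Wnt signals in others, read 7.90, 7.68 and 7.82 in the controls and 8.10, 7.79 and 7.49 after exposure, a mean of -0.0067 (SE 0.12) from 0.20, 0.11 and -0.33. Sfrp5, known as a hormone-like product of fat cells, lay at 5.76 with a difference of 0.020 (SE 0.10). Wif1, a secreted Wnt inhibitor of another protein family, lay at 6.26 with differences of -0.11, 0.36 and -0.34.

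Classical Dickkopf proteins bind the co-receptors and not the Wnt protein itself. Dkk3, a divergent member that is not a classical blocker of Lrp6, was the Dickkopf gene above the median gene, at the 97.3 percentile of all genes. It read 11.87, 11.37 and 11.57 in the controls and 11.82, 11.87 and 11.54 in the irradiated cultures. Its difference of 0.14 (SE 0.12, 95% interval -0.16 to 0.44) rested on the 0.50 of experiment 2, whose control was the lowest of the 6, and it was -0.040 without that experiment. Dkk2, which can block or activate Lrp6 depending on its partners, had the most variable difference of all members. It read 5.28, 4.39 and 5.61 in the controls and 5.15, 5.33 and 4.90 after exposure, so that its controls alone ranged over 1.22 log2 units. The mean was 0.033 (SE 0.28, 95% interval -0.63 to 0.69), and it was -0.42 without experiment 2 and 0.41 without experiment 3. Dkk1, the classical Lrp6 blocker, and Dkk4 were dim at 3.18 and 3.08, with differences of 0.11 (SE 0.094) and 0.017 (SE 0.088).

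Axin1, the standing scaffold of the complex that destroys beta-catenin, read 8.16, 8.03 and 8.28 in the controls and 8.10, 8.13 and 8.26 in the irradiated cultures, a difference of 0.0067 (SE 0.080) that turned sign when arrays were centred on their medians. Axin2, which beta-catenin itself switches on as a brake, read 6.28, 5.91 and 5.75 in the controls and 6.04, 5.84 and 5.58 after exposure. It was lower in every experiment, by -0.24, -0.07 and -0.17, while the groups overlapped because experiments differed in level. The mean was -0.16 (SE 0.080, 95% interval -0.35 to 0.032), at an unadjusted p of 0.0893 in limma, and it did not pass.

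Among the brighter members a pair of control arrays often held the extreme value. The control of experiment 2 was the lowest of the 6 arrays for 7 of the 15 members at or above the median gene (46.7%), namely Dkk3, Fzd1, Wnt4, Wnt5a, Axin1, Fzd2 and Wnt9a, and for 21.1% of all genes at or above it. The highest of the 6 values was the experiment 1 control for as many of the 15 (46.7%), and for 28.6% of those genes. Over all 42 members the controls of experiments 2 and 3 were each the lowest in 26.2%, against 17.1% and 17.6% of all genes. For the 15 brighter members the irradiated culture was higher in 12 in experiment 2, in 6 in experiment 1 and in 3 in experiment 3. Their median differences were -0.020, 0.16 and -0.12 in experiments 1 to 3, against -0.050, 0 and 0 over all genes at or above the median. These values were noticed after the data were seen and carry no test. Without experiment 2 the median difference over the 42 members was -0.015, on the other side of 0.

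Markers of fat cells differed in the same experiment. The mean level of the 8 measured adipocyte markers (of 10 listed) was 11.46, 11.69 and 11.30 in the controls and 11.52, 11.17 and 11.31 in the irradiated cultures, so the control of experiment 2 was the highest and its irradiated partner the lowest. All 8 were lower after exposure in experiment 2, where the bright Wnt4, Wnt5a and Dkk3 were higher and Fzd4 lower. The 4 measured osteoblast markers (of 8 listed) averaged 7.34, 6.51 and 6.55 in the controls and 7.18, 7.04 and 6.95 after exposure, and the 6 smooth muscle markers 7.39, 6.79 and 6.99 against 7.19, 7.17 and 7.21. Macrophage markers averaged 10.91, 11.16 and 11.16 in the controls and 10.73, 11.19 and 11.35 in the irradiated cultures. The 10 stromal markers averaged 9.905, 9.727 and 9.704 in the controls and 9.934, 9.911 and 9.793 after exposure. For the 5 measured preadipocyte markers (of 7 listed) the means were 6.53, 6.53 and 6.52 in the controls and 6.57, 6.58 and 6.31 after exposure. The part of these cell states in the Wnt values was not tested.

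Several genes were read by more than 1 probe set, and these did not always point the same way. The 42 members had 81 probe sets with a single symbol. Of the 25 members with several, all probe sets had a mean difference of 1 sign in 11 and of both signs in 13, with Axin1 at 0.0067 and 0, and the levels of a gene's probe sets spanned a median of 2.36 log2 units. limma gave 3 of the 81 probe sets an unadjusted p under 0.05, where it gave 3.77% of all 45037 probe sets one, and 0 passed after Benjamini-Hochberg adjustment.

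Sfrp1 is the clearest case among the bright genes. Its brightest probe set stood at -0.0067, while the other 4, at levels from 8.22 to 10.19, stood at 0.16, 0.11, 0.25 and 0.14 in order of falling level. The one at 0.25 (level 8.24) was higher in each experiment, at 0.17, 0.43 and 0.16, with an unadjusted p of 0.0332 in limma. The mean of all 5 was 0.13. The 4 probe sets of Wnt5a kept to 1 pattern, each highest in experiment 2 at 0.55, 0.55, 0.50 and 0.27, and both probe sets of Dkk3 and of Wnt4 had their highest difference there too. For Fzd4 both bright probe sets had their lowest difference in experiment 2 (-0.50 and -0.40) and a dim one at level 2.91 stood at 0.50. A dim probe set of Wnt7a (level 3.46) stood at -0.66, -0.24 and -0.24 and had the smallest unadjusted p of the 81 in limma, 0.0109, whereas the brightest of that gene (6.16) had a mean of 0.10. The second probe set of Axin2 (level 2.78) read -0.25, -0.28 and 0.24.

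**Figure D4:**
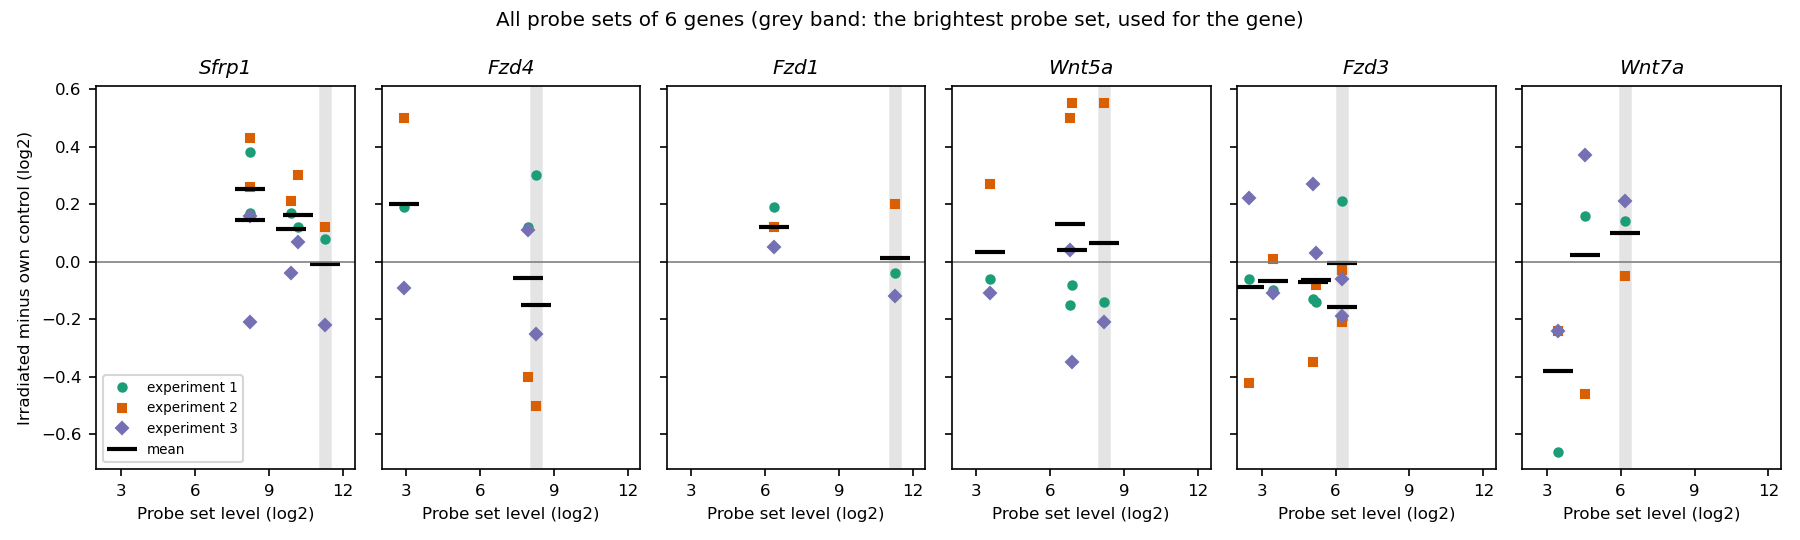
Irradiated minus own control (log2 units, vertical axis) against level (log2 RMA value, horizontal axis) for every probe set of 6 genes, by experiment, with the mean as a black bar and a grey band at the brightest probe set. In Sfrp1 the means of the 4 dimmer probe sets lie above 0 and that of the brightest at -0.0067, and in Wnt5a experiment 2 is the highest at every level.

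No other gene of the pathway passed the test. Of 79 listed genes in 5 lists 75 were measured, 50 of them at or above the median gene, and limma called 0 after Benjamini-Hochberg adjustment. At an unadjusted p under 0.05 limma gave 0 higher and 3 lower, against 3.31% of all genes: the dim Dkkl1, a Dickkopf-like gene (-0.26), Dvl2, a Dishevelled protein that relays the Frizzled signal (-0.23; -0.37, -0.14 and -0.19 in the 3 experiments), and the dim Daam2, a partner of Dishevelled (-0.25). Dkkl1 and Daam2 are named for these p values, after they were seen.

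Among 16 genes of Wnt secretion and extracellular partners 8 were at or above the median gene. Cthrc1, a secreted matrix protein that favours Wnt binding to Frizzled, read 8.28, 7.16 and 7.43 in the controls and 8.03, 7.97 and 7.84 after exposure. Its difference of 0.32 (SE 0.19), the highest of the 75, had 0.81 in experiment 2 and -0.25 in experiment 1. Porcn, the enzyme that adds the lipid to Wnt, stood at 0.16, Notum, which removes it, at 0.16 and Wls, the carrier that takes Wnt to the cell surface, at 0.10, none of them past the test. Of 11 co-receptor and turnover genes 8 reached the median gene. Their differences ran from -0.097 for Znrf3, a ligase that removes Frizzled, to 0.16, with Lrp1 at 0.11, the Wnt co-receptor Ptk7 at -0.087, the Wnt5a receptor Ror2 at -0.033 and the R-spondin receptor Lgr4 at 0.030.

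Inside the cell, 15 of 21 transducers had a mean below 0, with a median of -0.017. Over all genes 9689 of 18193 were below 0, and 5294 of the 9099 at or above the median gene. Ctnnb1, which encodes beta-catenin, read 13.26, 13.22 and 13.24 in the controls and 13.22, 13.24 and 13.25 after exposure (-0.0033, SE 0.077). Prickle1 and Prickle2, of the planar polarity branch, stood at -0.12 and 0.083. In the list of 13 TCF/LEF factors and co-factors the median was -0.027, with Tcf7l1, mainly a repressor, at -0.18 (SE 0.093), the co-repressor Tle2 at 0.14, the co-activator Pygo2 at -0.12 and Tcf7l2, the main TCF factor of many tissues, at -0.027. Of 19 measured beta-catenin target genes 14 had a mean above 0, with a median of 0.053, and 15 were higher in experiment 2 against 8 and 9 in experiments 1 and 3. Of all 18193 genes 8230 had a mean above 0, and 7434, 8547 and 8903 were higher in experiments 1, 2 and 3. The sign counts of these lists carry no test. Apcdd1, a target that also inhibits Wnt, stood at -0.24 (SE 0.13; 0.14, -0.44 and -0.43 in the 3 experiments), Ccn5, a matricellular protein, at 0.13, and Ccnd1, the cyclin D1 gene, at 0.013. limma called 0 of these targets higher and 0 lower after adjustment, with 0 at an unadjusted p under 0.05.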

How the data were processed

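Expression was measured on Affymetrix mouse arrays in 3 irradiated and 3 control cultures. The authors' deposited table gives log2 expression, 1 value for each probe set, made with RMA (background correction, quantile normalization, probe set summary) per the submitters' processing notes, which also name affy and limma; versions, genome build and log base were not stated there, and the range of 1.73 to 14.53 was taken as log2. Quantile normalization hides a change common to all transcripts.

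Of 45101 probe sets 64 are array controls, and 34945 of the rest have 1 symbol in the platform annotation. The probe set with the highest mean stood for each of 18193 genes, with no filter on dim ones. limma (version 3.58.1 in R 4.3.3; lmFit, eBayes) fitted irradiated minus control over all genes with the experiment as a block, with Benjamini-Hochberg adjustment and 95% intervals. The pairing comes from the series' design; after subtracting group means, both arrays of an experiment correlated at 0.150, -0.0903 and -0.0124. Residual degrees of freedom were 2, and the prior from eBayes was worth 4.66. The script was tested on simulated data. The labels call the experiments independent and do not say whether cell lots differed, so p-values speak for these experiments only. The spread behind each SE, interval and p-value is not the gene's own alone. eBayes draws it toward the spread of all genes, and that prior (4.66) outweighs the gene's own 2 degrees of freedom.

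Members, lists, tests and naming rules were chosen with earlier results of these data known. All 6 values are given for members at or above the median gene, for the up to 4 members with the largest difference of 1 sign and for the 4 with the most variable difference; pathway lists name up to 3 genes at or above the median gene with the largest difference, plus Ctnnb1, Tcf7l2, Ccnd1, Ror2, Lgr4 and Wls. Signs were counted beyond 0.001 log2 units. Alternatives were other models, array centring, other probe sets, a filter on dim genes and leaving out each experiment.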

Additional observations from a re-analysis of the deposited data

How the results depend on the processing

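Under every alternative tried (no replicate block, a random block, a trended and robust eBayes, arrays centred on their medians, the mean of a gene's probe sets, probe sets not marked s or x first, only genes at or above the median gene, and leaving out each experiment) limma with Benjamini-Hochberg called 0 genes and 0 members; members at an unadjusted p under 0.05 numbered 0 to 2. Without the replicate block the smallest adjusted p in limma was 0.997, with 2 members at an unadjusted p under 0.05, and the block changed no call. These were Wnt2b and Wnt10a, at an unadjusted p of 0.0172 and 0.0239 in limma. With the block limma gave Wnt10a 0.0509. Which members had such a p also changed without experiment 1: in limma they were Fzd5 (0.0288) and Fzd4 (0.0307), and Wnt2b stood at 0.13. The median difference over the members ran from -0.015 to 0.033 when an experiment was left out, below 0 without experiment 2, and was 0.0083 with arrays centred and 0.028 with probe set means. The count of members at or above the median gene stayed between 15 and 17. Mean differences changed sign for 8 of 42 members with probe set means, for 6, 11 and 11 without experiments 1, 2 and 3, for 1 with centring and for 0 under the other settings. With probe set means Fzd7, Wnt7a and Wnt7b moved by more than 1 SD of their differences, to 0.075, -0.086 and 0.090. No value here was called, so these are changes among differences that had not passed. Dim probe sets limit what RMA can show: 27 of 42 members lay below the median gene.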
